A study of Mus musculus with 4 samples.

Results

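Histone genes, replicative and variant, were examined in 4 RNA-seq libraries of CT26, an established mouse line from a colon carcinoma. Members were the rows of the deposited expression table whose symbols begin with Hist1h to Hist4h, H1f, H2af or H3f, leaving out symbols that mark pseudogenes and rows listed at 0 in every library. Of 91 matching rows, 4 were named pseudogenes and 10 were at 0 throughout, which left 77 genes of the 27670 above 0 in the table. By symbol, 63 were replicative genes (4 for H1, 16 for H2A, 18 for H2B, 12 for H3 and 13 for H4). The other 14 were variant genes (3 for H1, 7 for H2A and 4 for H3). The annotation gives H3f3aos as antisense, H3f3c, H2afy3 and Hist1h2al as processed pseudogenes, and Hist1h2aj as an unprocessed pseudogene. Their symbols do not mark this, so they were kept.

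The labels give FOSL2-WT and PBS for CT26_102 and CT26_CTL, and FOSL2-KO and Chemoradiotherapy for CT26_102_R and CT26_CTL_R. Genotype and treatment therefore change together with the title suffix R and cannot be told apart. The title stem, CT26_102 or CT26_CTL, is a further division that the labels do not explain. All 4 libraries are of 1 cell line grown in medium with serum, with 2 libraries in each group, no dose or time in the labels, and a design text that speaks of KD cells where the labels say KO. Fosl2 (ENSMUSG00000029135) was at 9.35 FPKM in CT26_102 and 15.97 in CT26_102_R, and at 12.7 in CT26_CTL and 19.2 in CT26_CTL_R, and it rose with the suffix R by 0.64 ± 0.13 (log2, adjusted p = 0.0444), a call that was lost without the title stem in the fit (adjusted p = 0.464) and without the filter on low values. The transcript level was thus not lower under the label FOSL2-KO, and it cannot show whether the gene was altered. The groups are therefore called here by their title suffix, and no direction is ascribed to the genotype. FPKM counts fragments per kilobase of a transcript relative to all fragments mapped in that library, so it is a level per length. Wherever 4 values follow each other they belong to CT26_102, CT26_102_R, CT26_CTL and CT26_CTL_R.

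The labels call the cells both colon adenocarcinoma and mesenchymal. Of 11 colon epithelial markers, Epcam, Cdx1 and Cdx2 were at 0 in every library, while Krt20 ranged from 24.5 to 36.8 FPKM and Krt18 from 34.7 to 76.5. Of 9 mesenchymal markers, Vim ranged from 503 to 782 FPKM and Lum was at 0 in every library. Their summed level was 1015, 642, 753 and 584, and 2 of 6 tested markers fell with the suffix R (5.32% of all genes). The summed level of 11 T and NK cell markers was at most 0.143 FPKM. That of the myeloid markers was 37.5, 155, 65.0 and 131 FPKM, with Ptprc, the defining marker of leukocytes, at most 0.0880. Of the 4 tested myeloid markers Cd68 and Cd14 rose with the suffix R (7.57% of all genes). Lyz2 (15.0, 53.1, 13.1 and 4.36) and Csf1r (1.096, 1.998, 0.965 and 0.158) differed in sign between the pairs. The part of these markers in the histone values was not tested. Depth, estimated from the steps between low values, was near 21.62, 24.15, 26.37 and 21.61 M reads (M for mega).

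Histones package DNA into nucleosomes. The replicative genes lie in clusters, are transcribed during DNA synthesis, and give short mRNAs that mostly end in a conserved stem-loop, bound by SLBP, rather than in a poly(A) tail. Variant histones replace them outside replication, from dispersed genes whose mRNAs are as a rule polyadenylated. H2A.Z marks nucleosomes at gene starts, H2A.X is phosphorylated beside DNA breaks, H3.3 is deposited at active chromatin and H1.0 accumulates in cells that divide little. The RNA kit is named as an mRNA kit, and the labels do not say how poly(A) RNA was selected. How much of the tail-less histone mRNA the libraries recovered was not tested.

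The replicative members formed 4 groups in GRCm38, with 52 genes of Hist1 on chromosome 13, 8 of Hist2 on chromosome 3, 2 of Hist3 on chromosome 11 and 1 of Hist4 on chromosome 6. A single exon is annotated in 58 of the 63. The stem-loop consensus of histone mRNA was searched on the sense strand in the first 150 transcript bases after the stop codon. It was found in 43 of 63 replicative genes, in 1 of 14 variants and in 50 of 21830 coding genes (0.229%). The 5 members that carry it and reached the level needed for testing are shown. The comparisons below also cover tested members without a match, among them H1f0, H2afz and Hist1h2bc. The capitals mark the stem-loop of 16 bases within the 3' UTR, with 5 bases on either side, as DNA letters of the GENCODE transcript.
Hist1h1c: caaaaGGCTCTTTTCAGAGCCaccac
Hist3h2a: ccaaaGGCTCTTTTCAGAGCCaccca
Hist1h2bg: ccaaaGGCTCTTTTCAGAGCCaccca
Hist1h4i: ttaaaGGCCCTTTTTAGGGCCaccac
H2afx: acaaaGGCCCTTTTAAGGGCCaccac
The stem began with GGCTC in every H1, H2A, H2B and H3 replicative gene that matched, and with GGCCC or GGTCC in the 12 matching H4 genes. H2afx, a variant, had the GGCCC form. Annotated transcripts ran past the stem-loop by 840 bases in Hist1h1c, 1643 in Hist3h2a, 822 in H2afx, 330 in Hist1h4i and 155 in Hist1h2bg. The polyadenylation signal AATAAA was in the last 50 annotated bases of 14 replicative genes, among them Hist1h1c, Hist2h2be and Hist3h2a, and of 7 of the 9 expressed variants.

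Promoter sequence from RefSeq (GRCm38.p6, 250 bases before to 50 after the start) was matched for 66 of 77 members. The CCAAT box, searched on both strands, was found in 46 of 55 replicative promoters (83.6%) and in 7 of 11 variant promoters, beside 37.4% of all 32851 promoters. TATAAA was in 31 of 55 replicative promoters, 1 of 11 variant promoters and 13.6% of all, and TTTGAA in 25 of 55, 1 of 11 and 17.9%. TTTGGCGC was in no member and in 0.514% of all. One promoter of each class is shown: that of H2afz, the only one of the 3 variants found lower with the suffix R that has both an entry and the box, chr3:137864237-137864536 on the plus strand, with the box in capitals (ATTGG on the other strand), and that of Hist1h1c, the replicative gene with the highest mean level, chr13:23738557-23738856 on the plus strand. The H1f0 promoter held no CCAAT.
H2afz: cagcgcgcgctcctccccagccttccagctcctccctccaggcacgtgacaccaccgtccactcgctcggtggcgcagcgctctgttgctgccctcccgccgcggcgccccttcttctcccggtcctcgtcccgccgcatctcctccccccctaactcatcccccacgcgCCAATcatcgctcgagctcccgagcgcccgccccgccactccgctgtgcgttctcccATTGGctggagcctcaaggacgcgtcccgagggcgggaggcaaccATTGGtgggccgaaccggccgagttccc
Hist1h1c: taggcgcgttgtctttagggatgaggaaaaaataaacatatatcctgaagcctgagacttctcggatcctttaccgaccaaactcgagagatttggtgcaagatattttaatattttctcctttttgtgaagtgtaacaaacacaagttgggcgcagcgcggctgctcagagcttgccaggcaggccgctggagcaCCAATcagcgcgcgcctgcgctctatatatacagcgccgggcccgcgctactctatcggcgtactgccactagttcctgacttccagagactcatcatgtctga
These matches are descriptions of letters. The files hold no binding or occupancy data.

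In every library the summed FPKM of the variant genes exceeded that of the replicative genes. Summed FPKM of the 14 variants was 682, 463, 1053 and 517, and that of the 63 replicative genes 41.0, 28.3, 37.5 and 41.3. The variant sum was 16.6, 16.4, 28.1 and 12.5 times the replicative one. The part that recovery of tail-less mRNA and shared sequence have in this ratio was not tested. H3f3b, H1f0, H2afz and H3f3a carried between 87.8% and 92.8% of the variant sum. The median of the mean level was 12.4 FPKM for variants and 0.237 for replicative genes.

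**Figure D1:**
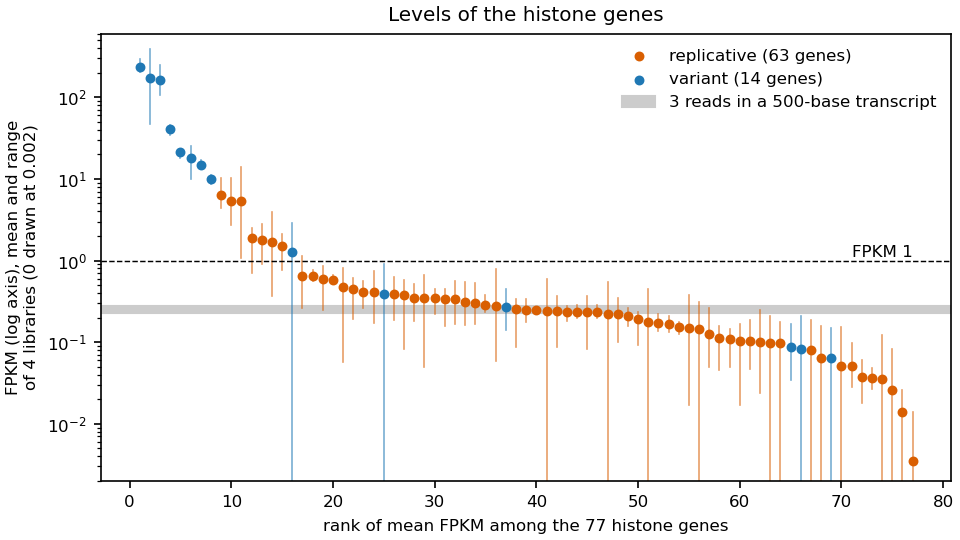
Mean FPKM (log axis) of the 77 histone genes by rank, with the range over 4 libraries as vertical lines, replicative genes in orange and variants in blue. The 8 highest genes are all variants, and 55 of 63 replicative genes stay below 1 FPKM (dashed line) in every library; the grey band is the level of 3 reads in a transcript of 500 bases.

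In bulk RNA, fewer expressing cells and less RNA per cell cannot be told apart. A gene entered the test where 2 or more libraries reached 1 FPKM, which 16 members did: 9 variants, and 7 replicative genes of which 2 encode H2A, 3 H2B, 1 H1 and 1 H4. No H3 replicative gene passed. Values were compared as log2(FPKM + 1), which understates the change of low genes, in a fit with both suffix and stem as terms, over 11955 genes. Because each comparison has 2 pairs, the pair differences given below are also the values with 1 library left out. All calls that follow depend on the second term: without it no member passed in either comparison, and limma called 1 gene in all (0.00836%) for the suffix and 34 (0.284%) for the stem, 0.234% higher and 0.0502% lower. At an unadjusted p under 0.05 that fit had 3 members for the suffix and 2 for the stem, beside 1281 and 2000 of all 11955 genes. Without the filter on low values, 0 of all 27670 genes were called in either comparison, so every call is lost in that setting.

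With the suffix R, 3 variants fell and 2 replicative genes rose, while 11 members did not pass. Over all tested genes 12.9% were called, of which those that fell made 5.32% and those that rose 7.57%. The median difference was −0.14 for the 9 variants, −0.31 for the 7 replicative genes and 0.0042 for all genes; the replicative median turned to 0.21 without CT26_102 or without CT26_102_R. The variants that fell were H1f0, H2afx and H2afz, and those calls were lost in the fit without the second term and in the fit without the filter on low values.

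H1f0 (ENSMUSG00000096210, chromosome 15, 79028450 to 79030504, plus strand, 1 exon) encodes the linker histone H1.0. Its values were 183, 46.5, 390 and 67.1 FPKM. Both libraries with the suffix R were below both without it, as in 21.1% of all tested genes. The ratio of R to none was 0.254 in the CT26_102 pair and 0.172 in the CT26_CTL pair, and the difference was −2.24 ± 0.16 (adjusted p = 0.0135). H2afx (ENSMUSG00000049932, chromosome 9, 44334694 to 44336077, plus strand) was at 24.9, 9.99, 25.4 and 11.1 FPKM. Its pairs gave nearly the same ratio, 0.4004 and 0.437, and it fell by 1.18 ± 0.13 on the log2 scale (adjusted p = 0.0198). H2afz (ENSMUSG00000037894, chromosome 3, 137864487 to 137866922, plus strand) encodes H2A.Z.1 and was at 182, 107, 245 and 117 FPKM. The groups did not overlap here either, with ratios of 0.588 and 0.476 and a difference of −0.91 ± 0.12 (adjusted p = 0.0241). Of its transcript windows of 50 bases, 35.4% also occur in other annotated genes and 30.9% in Tmcc1, so its level is uncertain to the extent that reads were split with a copy.

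**Figure D2:**
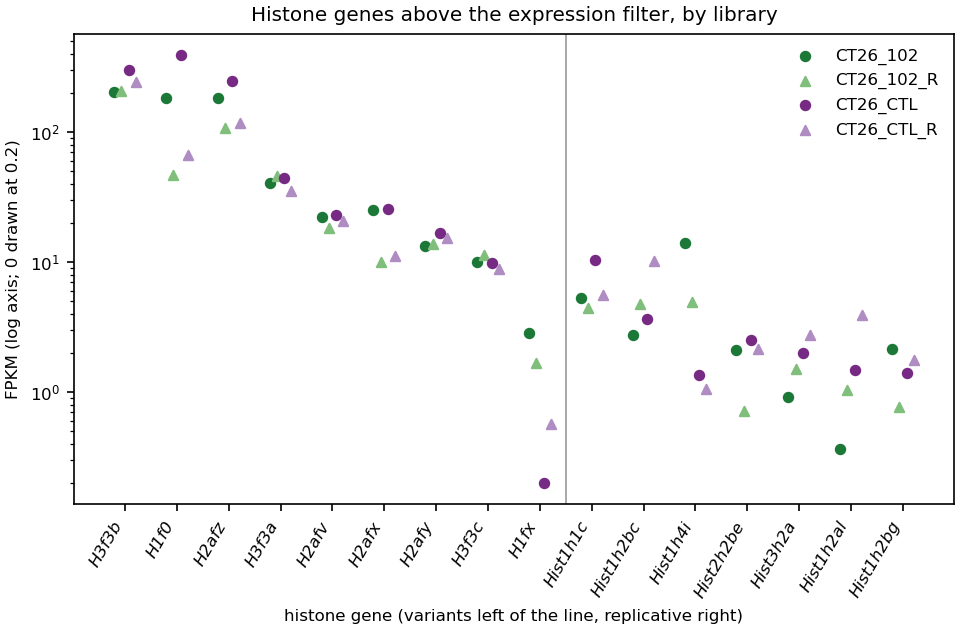
FPKM (log axis, 0 drawn at 0.2) of the 16 histone genes above the filter in each library; circles are libraries without the suffix, triangles those with R, green the CT26_102 stem and purple the CT26_CTL stem. For H1f0, H2afz and H2afx both triangles lie below both circles, while for Hist1h4i both green points lie above both purple ones. Of all tested genes, 21.1% have the first order and 28% the second.

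The H3.3 genes did not pass the test. H3f3b was at 204, 207, 298 and 242 FPKM, a difference of −0.14 ± 0.12 (adjusted p = 0.433). H3f3a, which encodes the same protein, was at 40.2, 46.0, 44.6 and 34.9 (−0.078 ± 0.17, adjusted p = 0.761). H2afv, encoding H2A.Z.2, was at 22.4, 18.2, 22.9 and 20.8 and differed by −0.21 ± 0.13 (adjusted p = 0.289). Whether H2afv and H2afz differ in response was not tested. The macroH2A1 gene H2afy was at 13.4, 13.8, 16.8 and 15.2 FPKM, a difference of −0.047 that became 0.032 with the length trend removed. H3f3c, annotated as a processed pseudogene, shares 73.8% of its windows with other genes, mainly H3f3a, so its 9.95, 11.2, 9.86 and 8.78 FPKM are uncertain; its difference of 0.0048 changed sign under upper-quartile rescaling and with the length trend removed.

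The levels of the 9 variants that passed can be ordered by their ranges. H3f3b, H1f0 and H2afz overlapped at the top. H3f3a lay below all of these and above H2afv in every library, H2afv overlapped H2afx, and H2afx overlapped H2afy and H3f3c. H1fx, encoding the linker histone H1.10, was lowest at 2.86, 1.67, 0 and 0.564 FPKM. The other 5 variants, including H2afj at 0.418, 0.897, 0.248 and 0 FPKM and H2afy2 at 0.142, 0.199, 0.273 and 0.450, were below 1 FPKM in every library.

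Among replicative genes, Hist1h2bc and Hist1h2al rose with the suffix R. Hist1h2bc (ENSMUSG00000018102, chromosome 13, 23684199 to 23692908, plus strand), an H2B gene, was at 2.74, 4.73, 3.67 and 10.3 FPKM. Both R libraries were above both others, as in 22.3% of all tested genes. The pair differences were 0.62 and 1.27, and the estimate was 0.94 ± 0.20 (adjusted p = 0.0456). The value without CT26_CTL or CT26_CTL_R is 0.62. Hist1h2al (ENSMUSG00000091383, chromosome 13, 51202727 to 51203065, minus strand) is annotated as a processed pseudogene, was at 0.368, 1.05, 1.47 and 3.89 FPKM, and rose by 0.78 ± 0.17 (adjusted p = 0.0498). Its groups overlapped, it rests on about 2.70 to 28.5 reads per library, and 67.6% of its windows are shared, 65.5% with Hist2h2aa2. Both calls were lost under median-of-ratios rescaling and with the length trend removed, as well as without the second term and without the filter.

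The other 5 replicative genes that passed the filter did not pass the test for the suffix. Hist1h1c (chromosome 13, 23738808 to 23740367), encoding H1.2, was the highest replicative gene by mean at 5.26, 4.46, 10.4 and 5.58 FPKM, a difference of −0.49 ± 0.19 (adjusted p = 0.131). Hist2h2be (chromosome 3, 96221119 to 96223738), an H2B gene with no window shared with another gene, was at 2.09, 0.711, 2.52 and 2.15 (−0.51 ± 0.21, adjusted p = 0.159). Hist3h2a (chromosome 11, 58954685 to 58956830), an H2A gene sharing 31.5% of its windows with Trim17, was at 0.917, 1.51, 1.98 and 2.77 (0.36 ± 0.15, adjusted p = 0.147). Hist1h4i, an H4 gene, differed by −0.76 ± 0.29 (adjusted p = 0.134). Hist1h2bg, another H2B gene, was at 2.14, 0.765, 1.40 and 1.77, so it was lower with R in the CT26_102 pair and higher in the CT26_CTL pair.

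By title stem, CT26_102 against CT26_CTL, 2 members were called higher and 3 lower, and 11 did not pass. Of all genes tested 21.9% were called, 12.5% higher and 9.44% lower. The higher members were Hist1h4i and H1fx, and the lower ones H1f0, Hist1h2al and Hist3h2a. The median difference was −0.57 for replicative genes, −0.11 for variants and 0.054 for all genes. Hist1h4i (ENSMUSG00000060639, chromosome 13, 22040636 to 22041362, minus strand) was at 13.9, 4.95, 1.34 and 1.06 FPKM. Both CT26_102 libraries were above both CT26_CTL libraries, as in 28% of all tested genes. The ratio was 10.4 without the suffix and 4.67 with it, and the estimate was 2.10 ± 0.29 (adjusted p = 0.0154). The sum of the 13 H4 genes, which includes it, was 18.02, 7.71, 5.41 and 5.46 FPKM, and 28.9% of its windows are shared with other genes. H1fx reached 1 FPKM only in the CT26_102 libraries, so it entered the test through the stem in which it is high, and its call (1.36 ± 0.31, adjusted p = 0.0390) supports nothing further. It is listed at 0 in CT26_CTL, so no fold is given, and the call was lost with a pseudocount of 0.1. Without CT26_102_R or CT26_CTL_R the value is 1.95, and without CT26_102 or CT26_CTL it is 0.77.

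H1f0 fell in the CT26_102 stem as well, by 0.81 ± 0.16 (adjusted p = 0.0314). Its ratio of CT26_102 to CT26_CTL was 0.468 without the suffix and 0.692 with it, and the values of the stems overlapped. The pair differences were −1.09 and −0.52, the latter being the value without CT26_102 or CT26_CTL. Hist1h2al was lower by 1.06 ± 0.17 (adjusted p = 0.0210) and Hist3h2a by 0.61 ± 0.15 (adjusted p = 0.0446). For both genes all CT26_102 libraries lay below all CT26_CTL libraries, as in 20.9% of all tested genes. The call of Hist3h2a was lost with the length trend removed, and all 5 calls by stem without the second term and without the filter. H2afx and H2afz, which fell with the suffix, differed by −0.080 (adjusted p = 0.672) and −0.28 (adjusted p = 0.148) by stem.

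**Figure D3:**
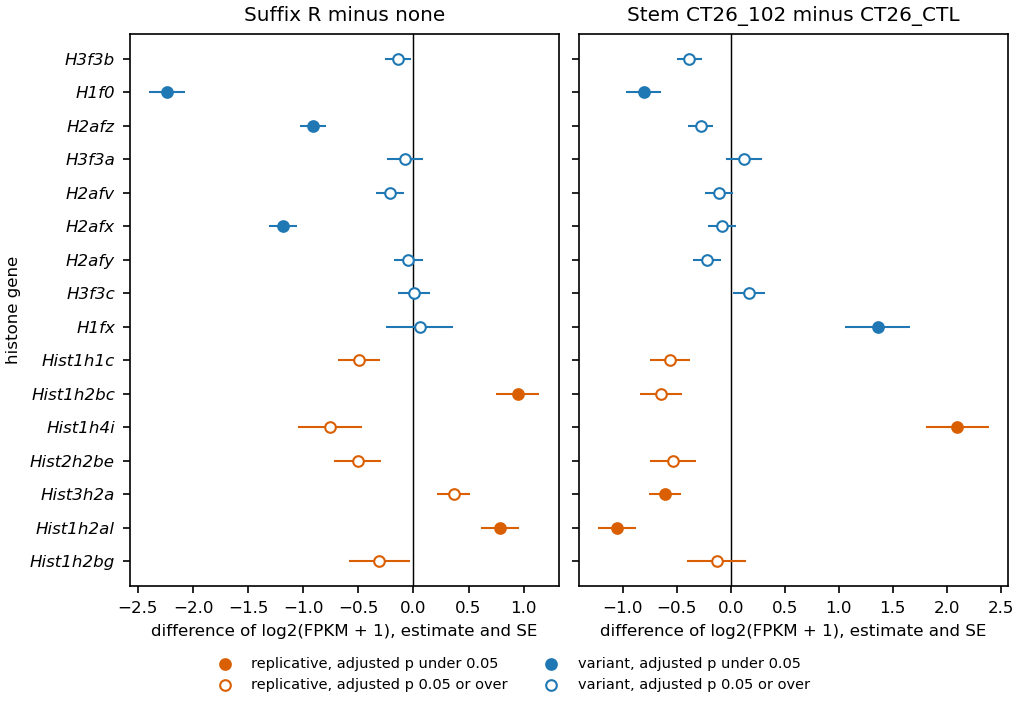
Estimated difference in log2(FPKM + 1) with its SE for the 16 tested histone genes, by suffix on the left and by stem on the right; filled points have an adjusted p under 0.05. Of the 16, 5 are filled in each panel, H1f0 and Hist1h2al in both.

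The 56 replicative genes below the filter gave little to compare. They held a median of 3 estimated reads per library, and 210 of their 224 values (93.8%) were under 10 reads. The ones at ranks 8 to 20 by level, Hist1h4h, Hist1h2bk, Hist1h4n, Hist1h3h, Hist1h3b, Hist1h2ab, Hist1h4a, Hist2h3c1, Hist1h2ae, Hist1h2af, Hist1h3g, Hist1h4c and Hist1h3i, had means of 0.343 to 0.645 FPKM and single values of 0.0502 to 1.13. Of the H4 genes among them, Hist1h4h was at 0.864, 0.264, 0.323 and 1.13 FPKM, Hist1h4n at 0.251, 0.548, 0.845 and 0.734, Hist1h4a at 0.264, 0.457, 0.568 and 0.375, and Hist1h4c at 0.401, 0.0502, 0.662 and 0.264. Of the H3 genes, Hist1h3h was at 0.564, 0.512, 0.658 and 0.591 FPKM, Hist1h3b at 0.0577, 0.490, 0.810 and 0.512, Hist2h3c1 at 0.322, 0.174, 0.384 and 0.744, Hist1h3g at 0.181, 0.234, 0.450 and 0.520, and Hist1h3i at 0.442, 0.220, 0.343 and 0.366. The H2A genes Hist1h2ab (0.392, 0.604, 0.611 and 0.193), Hist1h2ae (0.628, 0.188, 0.340 and 0.384) and Hist1h2af (0.582, 0.372, 0.485 and 0.0816) and the H2B gene Hist1h2bk (0.755, 0.692, 0.559 and 0.566) were as low. These values rest on about 0.703 to 29.3 reads, and no direction is read from them.

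Direction within pairs was counted for the whole class. Of all 63 replicative genes, 13 (20.6%) were higher with R in both pairs and 21 (33.3%) lower in both, against 28.7% and 26.2% of all rows above 0. By stem, 11 (17.5%) were higher in CT26_102 both without and with the suffix and 26 (41.3%) lower in both, against 34.9% and 22.1%. Since 56 of the 63 lay below the filter, these counts rest mostly on few reads and no direction of the class is read from them. The summed replicative level was 0.689 times that of the library without R in the CT26_102 pair and 1.102 times in the CT26_CTL pair, so the pairs pointed opposite ways.

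Sequence sharing limits which gene a read can be given to. The median share of 50-base windows found in another annotated gene was 59.9% for replicative genes below the filter, 30.6% for those above it and 9.66% for variants above it. By family it was 73.3% for H2A, 62.0% for H3, 46.9% for H2B, 39.5% for H4 and 5.39% for H1 of the replicative class. How the deposited values divide reads among such copies is not stated in these sources. The part that shared sequence has in the low levels was not tested.

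**Figure D4:**
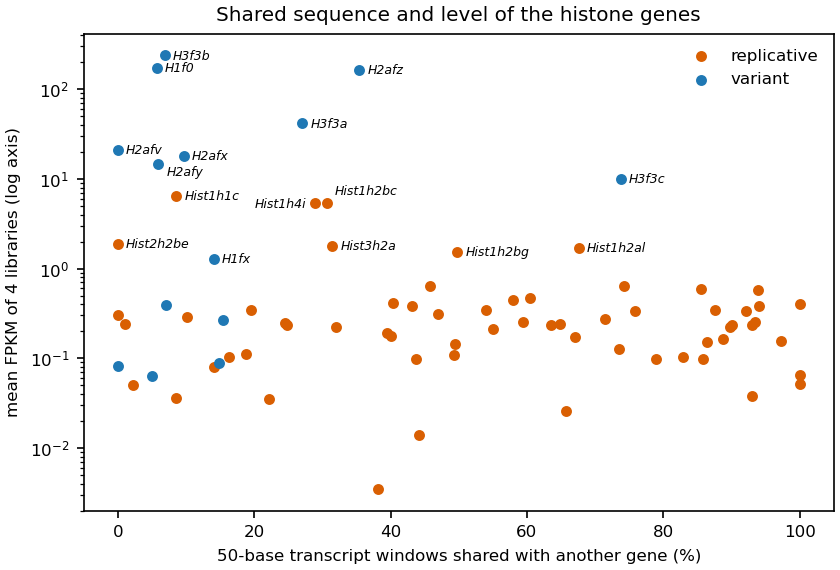
Mean FPKM (log axis) of each histone gene against the percent of its 50-base transcript windows that also occur in another gene, with genes above the filter named. Shared windows run from 0% to 100% among replicative genes; Hist1h2al and H3f3c are the named genes with over 50%.

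RNAs without a poly(A) tail, which share that feature with most replicative mRNA, were read beside them. Of 50 tested small nucleolar and other such RNAs, 11 fell and 2 rose with the suffix R (5.32% and 7.57% of all genes), with a median difference of −0.36, and their summed level was 288, 201, 285 and 207 FPKM. Of these calls 3 of the 11 and 1 of the 2 are RNAs that reached 1 FPKM only in the group where they are high, so their selection favoured a difference. Among them were Snord57, at 18.4, 0.0385, 12.2 and 0.0282 FPKM, Snora7a, at 12.9, 0.0820, 10.2 and 0.761, and Snora9, at 0.134, 11.2, 0.0735 and 17.99. Snora52, which did not depend on 1 group for its entry, fell (5.56, 2.57, 3.36 and 0.116). Many of the small nucleolar RNAs lie in introns of host genes. By stem 6 of the 50 rose in CT26_102 and 3 fell (12.5% and 9.44% of all genes), with a median of 0.092. Of the 6, 1 reached 1 FPKM only in the CT26_102 libraries. Rn7sk was at 0.732, 1.37, 12.1 and 6.10 FPKM, and Rn7s1 and Rn7s2 were also lower in both CT26_102 libraries. Rmrp (0, 1.44, 1.35 and 1.02) differed in sign. The part of these RNAs in the replicative values was not tested.

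The factors that make histone mRNA or turn it over did not pass the test for the suffix. By limma, 0 of 21 tested genes passed the adjusted threshold. At an unadjusted p under 0.05, 4 were higher and 4 lower, and 0 passed without the second term. Of all 11955 genes, 4315 had an unadjusted p under 0.05, and 1281 without the second term. The median of the 21 was −0.055. Slbp, which encodes the stem-loop binding protein, was at 9.08, 7.97, 9.01 and 7.70 FPKM. Npat, the coactivator of histone transcription, was at 7.21, 5.83, 4.87 and 4.10. By stem 4 of the 21 rose in CT26_102 and 0 fell (12.5% and 9.44% of all genes), but 2 rose with a pseudocount of 0.1, under median-of-ratios rescaling or with the length trend removed. These were Cpsf3, the endonuclease of pre-mRNA cleavage, its partner Cpsf2, Lsm10 of the U7 particle, and Casp8ap2, a scaffold of histone locus bodies at 5.78, 4.82, 3.19 and 2.78 FPKM (0.66, adjusted p = 0.0331).

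Of 34 histone chaperones and exchange factors, 5 fell and 3 rose with the suffix R (5.32% and 7.57% of all genes), with a median of −0.21. Anp32e, which removes H2A.Z from nucleosomes, fell by 0.83 ± 0.16 (adjusted p = 0.0425), at 50.3, 23.2, 49.3 and 32.9 FPKM. The other 4 that fell were Npm1 (576, 366, 543 and 337 FPKM), Set and Nap1l1, general chaperones, and Rbbp7, which binds H3 and H4. Dnajc9, a chaperone of H3 and H4, rose by 0.94 ± 0.12 (adjusted p = 0.0240), at 26.2, 54.1, 22.2 and 41.3. Spty2d1, at 6.90, 11.4, 5.03 and 9.87, rose by 0.75, and Daxx, which deposits H3.3, rose by 0.61 (adjusted p = 0.0494), at 8.12, 12.0, 10.3 and 17.4. Asf1b, a replication chaperone of H3 and H4, was at 25.8, 18.5, 25.6 and 19.3 FPKM and did not pass (adjusted p = 0.0797). Hira, of H3.3 deposition, was at 10.3, 8.66, 7.02 and 5.86 and did not pass either (adjusted p = 0.262). By stem 3 rose and 0 fell (12.5% and 9.44% of all genes), the 3 being Supt6, Supt16 and Srcap. Under upper-quartile rescaling 4 rose, under median-of-ratios rescaling 2 and with the length trend removed 1, beside 1607, 1190 and 1027 of all genes. The stem median of 0.11 became −0.0049 with the length trend removed. Srcap, the ATPase that deposits H2A.Z, was at 2.75, 3.09, 0.302 and 0.320 FPKM, and since it reached 1 FPKM only in the CT26_102 libraries it entered the test through the stem in which it is high. The centromeric H3 variant Cenpa was at 9.82, 6.66, 12.8 and 10.1 FPKM (−0.41 ± 0.14 for the suffix, adjusted p = 0.103).

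S phase genes were read as well, since replicative histones are made then. With the suffix R, 4 of 23 fell and 1 rose (5.32% and 7.57% of all genes), with a median of −0.24. Ccna2, the S phase cyclin, fell by 1.20 ± 0.14 (adjusted p = 0.0201), at 56.7, 26.9, 42.0 and 15.8 FPKM. Tk1 (16.5, 6.82, 14.4 and 7.18), Mcm6 (39.8, 21.5, 33.5 and 19.1) and Gins1 fell as well, and Prim1, a primase subunit, rose (15.9, 29.2, 15.5 and 26.6). Their part in the histone values was not tested.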

How the data were processed

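RNA-seq of 4 CT26 libraries was analysed from gene FPKM values that the authors deposited. Per the labels' protocols, an RNeasy kit gave total RNA and a SMARTer mRNA kit the libraries. The submitters' processing notes name GRCm38 and mm10. Aligner, quantifier and strand setting: not given in the sources used here. Positions, exons and transcript sequence came from GENCODE M21. The members and gene lists were chosen with earlier results of these data known.

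The 11955 genes that reached 1 FPKM in 2 or more libraries were fitted as log2(FPKM + 1) with suffix and title stem as terms, in limma 3.58.1 (R 4.3.3, eBayes with trend). P-values are two-sided and adjusted by Benjamini-Hochberg over these genes (threshold 0.05). Rose and fell mean past it, and ± is the SE of that fit. The fit has 1 residual degree of freedom plus 4.01 from the prior. No label says that libraries are separate cultures, so the p-values rest on a spread between libraries that may be technical. An exact permutation test of 2 against 2 cannot go below 0.333 and was not run. The stem difference without the suffix and that with the suffix R correlated across tested genes (Pearson 0.723, Spearman 0.724). Genes are not independent. The title stem is the block. Depth was estimated from low values, of which 28.3% to 29.7% were whole reads within 0.02, so reads are approximate and no count model was used. Named genes were all variants above the filter, the 20 highest replicative genes, all members past the threshold, and fixed regulators with up to 4 more per list. Alternatives were the fit without the second term, a pseudocount of 0.1, no filter, upper-quartile and median-of-ratios rescaling, removal of a length trend, and each library left out.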

Additional observations from a re-analysis of the deposited data

Results flagged for a closer look

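Differences with the suffix R ran opposite ways in the pairs for 4 genes. They were −0.83 in the CT26_102 pair and 0.21 in the CT26_CTL pair for Hist1h2bg (apart by −1.04), 0.19 and −0.35 for H3f3a (0.54), 0.16 and −0.15 for H3f3c (0.31), and −0.53 and 0.65 for H1fx (−1.18). By stem the difference was 0.39 without the suffix and −0.65 with it for Hist1h2bg (1.04), and −0.15 and 0.39 for H3f3a (−0.54). With 1 library in each cell of the design, none of these differences between pairs was tested.

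Of the named pseudogenes that were left out, the H3f3a copies gave signal too, while Hist3h2bb-ps and H2af-ps were at 0 in every library. H3f3a-ps2 was at no less than 5.74 FPKM and at most 9.42 in the 4 libraries, and H3f3a-ps1 at no less than 0.385 and at most 0.996, where 3 reads correspond to 0.338 and 0.339 FPKM.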

How the results depend on the processing

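Without the second term (no replicate block) or without the filter on low values, 0 members were called higher and 0 lower in either comparison. In the main fit these were 2 and 3. The fit without the filter called 0 of all 27670 genes higher and 0 lower, in either comparison. At an unadjusted p under 0.05 without the filter, limma had 12 of 77 for the suffix and 15 for the stem. Of all 27670 genes it had 4937 and 5802. Without the second term it had 3 and 2 of 16, beside 1281 and 2000 of all 11955 genes. For the suffix, 0 were called higher under median-of-ratios rescaling and with the length trend removed. For the stem, 1 was called higher with a pseudocount of 0.1. The replicative median for the suffix was −0.036 without the filter, −0.52 with a pseudocount of 0.1 and −0.46 with the length trend removed, and ranged from −0.20 to 0.21 with 1 library left out, and the variant median from −0.30 to −0.29. The variant median was −0.063 without the filter, −0.20 under upper-quartile rescaling and −0.20 with the length trend removed. By stem, the replicative median was −0.036 without the filter and from −0.65 to −0.32 with 1 library left out. The variant median was −0.055 without the filter, −0.17 under median-of-ratios rescaling, −0.0082 with the length trend removed and from −0.15 to −0.13 with 1 library left out. Signs turned with the length trend removed for H2afy (0.032), H3f3c (−0.14) and H1fx (−0.092) by suffix and for Hist1h2bg (0.052) and H2afx (0.037) by stem, and for H3f3c under upper-quartile rescaling (−0.051), none of them called. The causes were not tested. Lists of histone mRNA factors, chaperones, S phase genes and tail-less RNAs had 0 calls without the second term and without the filter. Without the second term limma had, at an unadjusted p under 0.05 by suffix, 0, 6, 6 and 10 of 21, 34, 23 and 50. Of all 11955 genes it had 1281. By suffix, chaperones called higher were 2 in each of the other alternatives and called lower 4 or 5. S phase genes called lower were 4 to 6, and RNAs without a tail called lower 9 to 16. Of all genes, 715 to 937 were called higher in these alternatives and 532 to 1011 lower. The 6 and the 16 are from upper-quartile rescaling, which also gave the 1011, against 636 in the main fit. Leaving out 1 library gives the value of the remaining pair, with no test.

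In a transcript of 500 bases 3 reads correspond to between 0.228 and 0.278 FPKM. The 56 replicative genes below the filter held a median of 3 estimated reads, so their differences could not be assessed. The parts of depth, recovery and shared sequence in these low levels were not tested. This floor covers counting error only.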
